A study of Apis mellifera with 18 samples.

Results

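Gustatory receptor 10 (Gr10, GB44013) and the gustatory receptor for sugar taste 43a (Gr43a, GB40382) are 2 of the 17545 genes counted in 18 RNA libraries of Italian honey bees (Apis mellifera). They were taken by their identifiers, and each was the only gene of the table whose best hit was that RefSeq gene. By name or protein domain 21 table entries belonged to the gustatory receptor family. Libraries came from tissue labelled tentacles and from mouthparts, of a control group without pollen, a pear pollen collection group and an Olea europaea (olea) pollen collection group. Each of these 6 groups had 3 libraries. A pollen effect below means the difference of a collection group from the control group. Pollen and other differences between these groups of bees cannot be told apart. The labels give no age or caste and name no transgene or mutation. They leave unsaid whether the 3 libraries of a group came from separate bees, so a p-value here covers the spread between libraries, which may be technical. The 3 mouthparts libraries coded YH are named pear in their titles and olea in their genotype entries, and every mouthparts value for olea rests on reading them as olea. Collection preference is the subject that the series title names.

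Gustatory receptors are membrane proteins of insect taste neurons that form ion channels opened by tastants such as sugars, bitter compounds and amino acids. Taste neurons sit in sensilla on the antennae, mouthparts and legs, and some receptors are also made outside taste organs. Honey bee Gr10 has been described as a receptor for amino acids that is also made in the hypopharyngeal gland, the head gland with which nurse bees make royal jelly. In Drosophila, Gr43a is a fructose receptor of taste organs and brain. The sugar receptors of the 64 group, also in Drosophila, respond to sugars such as sucrose and maltose.

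Total counts ran from 25.9 to 41.4 M (1e6 counts) per library. Levels are given as CPM, counts per 1e6 counts after TMM scaling, or as the authors' FPKM where genes are compared with each other, since FPKM is per kilobase of transcript. The labelled tissues differed in their markers. A list of 23 genes of antennal sensilla, mostly odorant binding proteins, took 4.89 to 5.77% of the counts of a tentacles library and 0.650 to 1.12% of a mouthparts library. Gene by gene this list went both ways. In the controls 7 of 21 tested were higher in the mouthparts and 10 lower, where 34.4% and 36.0% of all genes were. The homeotic gene proboscipedia (GB51302), which sets mouthparts identity in insects, was at 71.2 to 102 CPM as group means in the mouthparts and at 0 to 0.234 CPM in the tentacles. Muscle markers took 3.92 to 6.20% of mouthparts counts against 0.562 to 0.889%, fat body markers 0.433 to 0.533% against 0.142 to 0.165%, and neuron markers 0.108 to 0.133% against 0.217 to 0.239%. Photoreceptor markers took 0.0392 to 0.0553% in all libraries. The most abundant gene of that list was beta-arrestin-1 (GB42604), at 148 to 280 CPM as group means. Its share is thus not one of opsins alone. The muscle list also takes in non-muscle myosin, cofilin and twinfilin, and the neuron list general syntaxins, so neither is limited to its cell type.

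Gr10 was rare and was lower in each pollen group than in the control of the same tissue. In the tentacles the 3 control libraries held 22, 35 and 31 Gr10 counts, which is 0.478, 0.769 and 0.925 CPM. The pear libraries held 2, 6 and 3 counts, or 0.0588, 0.189 and 0.0901 CPM. The olea libraries held 0 counts in all 3. Every control library lay above every pear and olea library. Over the olea group, 0 counts allow a level of up to 0.0320 CPM (3 counts). In a single olea library they allow 0.0900 to 0.103 CPM, so at this depth pear libraries 1 and 3 were not shown to lie above the olea libraries.

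The mean of the tentacles controls was 0.724 ± 0.227 CPM (SD, n = 3) and that of the pear group 0.113 ± 0.0679 CPM, a ratio of 6.43. Gr10 fell by 2.66 ± 0.47 (SE) in log2 with pear pollen (edgeR quasi-likelihood F test, adjusted p = 0.0021, Benjamini-Hochberg over all genes tested). Against the same controls it was lower with olea pollen (edgeR, adjusted p = 0.00020). The control mean was 22.6-fold the level that 0 counts allow in the olea group (3 counts). That fold leaves out the error of the control mean. Between olea and pear pollen, with 0 against 11 counts, the call was not made (edgeR, adjusted p = 0.084, unadjusted p = 0.0030). In these comparisons 29.5% of all 12950 genes tested were called for pear against control, 27.9% for olea against control and 2.60% for olea against pear. In bulk tissue, fewer cells that express Gr10 and less Gr10 RNA per cell cannot be told apart.

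In the mouthparts the control libraries held 39, 64 and 29 Gr10 counts, or 1.53, 2.57 and 1.22 CPM. The pear libraries held 6, 13 and 20 counts, or 0.154, 0.373 and 0.554 CPM. The olea libraries held 6, 5 and 13 counts, or 0.246, 0.206 and 0.551 CPM. Both pollen groups lay wholly below the controls, and they overlapped each other.

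Mouthparts means were 1.78 ± 0.71 CPM in the controls, 0.360 ± 0.200 CPM with pear and 0.334 ± 0.189 CPM with olea (SD, n = 3 each). Gr10 was lower with pear by 2.30 ± 0.45 in log2 (edgeR, adjusted p = 0.0023). Its log2 difference with olea was -2.39 ± 0.48 (edgeR, adjusted p = 0.0039). Of all 12285 genes tested, 33.8% were called for pear and 26.8% for olea. The pollen groups differed by -0.09 ± 0.54 (olea minus pear, edgeR, adjusted p = 0.92), with a 95% interval of -1.27 to 1.09, a comparison in which 30.9% of genes were called. Without the second library of all 3 mouthparts groups, the olea difference from control was -1.76 at adjusted p = 0.063.

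**Figure D1:**
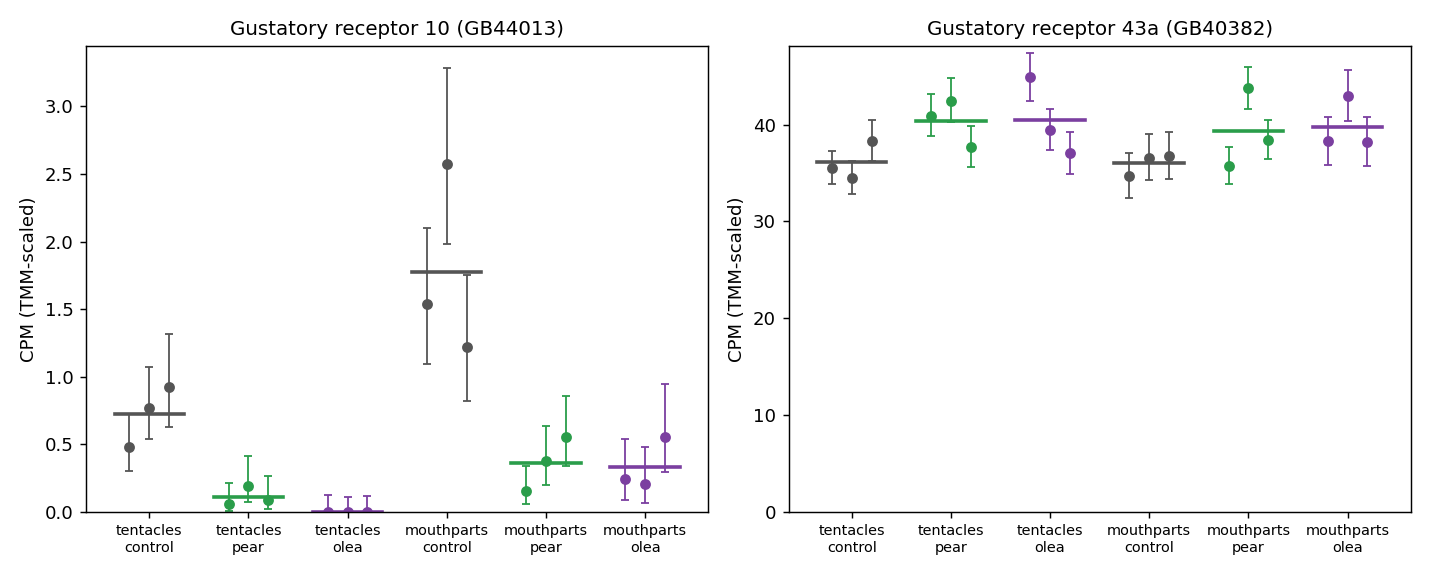
Level of Gr10 (left) and Gr43a (right) in every library, in TMM-scaled CPM, by tissue and pollen group. Points are libraries with exact 95% Poisson intervals (counting error only) and lines are group means of 3 libraries. Gr10 controls lie at 0.478 to 0.925 CPM in the tentacles and 1.22 to 2.57 CPM in the mouthparts, above all pollen libraries of their tissue, whereas all Gr43a libraries lie between 34.5 and 44.9 CPM.

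Gr43a was far more abundant and varied little. Its counts ran from 874 to 1635 per library, 22109 in all, against 294 for Gr10. The 18 libraries lay between 34.5 and 44.9 CPM, a ratio of highest to lowest of 1.30, around a mean of 38.7 ± 3.1 CPM (SD, n = 18). Tentacles libraries held 35.6, 34.5 and 38.3 CPM in the controls, 40.9, 42.5 and 37.7 CPM with pear pollen and 44.9, 39.4 and 37.0 CPM with olea pollen. In the tentacles the pollen groups overlapped the controls.

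Mouthparts libraries held 34.7, 36.6 and 36.8 CPM of Gr43a in the controls, 35.7, 43.7 and 38.4 CPM with pear pollen and 38.3, 42.9 and 38.2 CPM with olea pollen. The olea libraries lay just above the controls and the pear libraries overlapped them. No pollen difference passed the test. The mean difference from control was 10.8% with pear (95% interval -1.80 to 25.1%) and 10.95% with olea (-1.72 to 25.25%) in the tentacles, with edgeR adjusted p = 0.19 for each. In the mouthparts it was 9.3% with pear (-3.12 to 23.3%, adjusted p = 0.24) and 11.8% with olea (-1.05 to 26.25%, adjusted p = 0.17). Between the pollens, olea minus pear was 0.00 ± 0.08 in log2 in the tentacles (edgeR, adjusted p = 1.0) and 0.03 ± 0.08 in the mouthparts (adjusted p = 0.80). The mouthparts differences are relative to the scaling. With library totals in place of TMM, which moved the median of all genes by 0.13 for pear, Gr43a was higher by 0.26 with pear (adjusted p = 0.017) and by 0.22 with olea (adjusted p = 0.049).

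The tissues were compared within each pollen group, with all 18 libraries in a fit that tested 13361 genes. Gr10 was higher in the mouthparts than in the tentacles of control bees by 1.30 ± 0.43 in log2 (edgeR, adjusted p = 0.013), from means of 1.78 and 0.724 CPM. The ranges of the control libraries did not overlap. With pear pollen the tissues differed by 1.65 ± 0.61 (adjusted p = 0.024), from 0.360 and 0.113 CPM, and the lowest mouthparts library (0.154 CPM) lay below the highest tentacles library (0.189 CPM). With olea pollen Gr10 was higher in the mouthparts (adjusted p = 0.00014). The mouthparts mean was 10.4-fold the level that 0 counts allow in the tentacles, a fold that leaves out the error of that mean. Tissue separated most of the transcriptome, as 70.3% of genes were called in the controls, 68.5% with pear and 75.6% with olea.

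The calls of Gr10 between tissues were lost in several alternatives. In the controls the difference was 1.07 (adjusted p = 0.064) without tentacles control library 1, 0.94 (adjusted p = 0.098) without mouthparts control library 2 and 0.93 (adjusted p = 0.059) with library totals alone. In the pear groups it was 1.34 (adjusted p = 0.096) without tentacles pear library 1, 1.52 (adjusted p = 0.074) without tentacles pear library 3 and 1.22 (adjusted p = 0.12) without mouthparts pear library 3, all with edgeR. On log2(FPKM + 1) with limma it was 0.21 (adjusted p = 0.16) with pear and 0.27 (adjusted p = 0.064) with olea.

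Gr43a did not pass between tissues. Mouthparts minus tentacles was 0.00 ± 0.08 in log2 in control bees (95% interval -0.18 to 0.17, edgeR, adjusted p = 0.97), -0.04 ± 0.08 with pear (adjusted p = 0.70) and -0.02 ± 0.09 with olea (adjusted p = 0.82). This near equality depends on TMM scaling, whose factors were 1.09 to 1.16 in the tentacles and 0.857 to 0.977 in the mouthparts. With library totals alone Gr43a was lower in the mouthparts in all 3 groups, by -0.38, -0.24 and -0.30, each past the threshold. In that setting the median of all genes moved by -0.38, -0.20 and -0.28, so relative to the median gene the differences were close to those with TMM.

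The difference of Gr10 between collection and control groups was also compared between tissues as an interaction. For pear pollen it was 0.35 ± 0.71 (mouthparts minus tentacles, 95% interval -1.16 to 1.86, edgeR, adjusted p = 0.81), where 12.8% of genes were called. For olea pollen the interaction passed at adjusted p = 0.023, where 15.4% of genes were called. Its fitted size rests on the tentacles group at 0 and is no estimate of a fold. On log2(FPKM + 1) with limma the direction turned and the call was lost (-0.15, adjusted p = 0.63). Leaving out any of the 3 tentacles olea libraries gave adjusted p = 0.054, 0.059 and 0.057, and leaving out mouthparts olea library 3 gave 0.059. Gr43a had interactions of -0.03 ± 0.12 for pear (adjusted p = 0.90) and -0.02 ± 0.12 for olea (adjusted p = 0.95). Over all 11 comparisons Gr10 passed in 8 by edgeR. Gr43a passed in 0 by edgeR and in 0 by DESeq2, and at an unadjusted p under 0.05 the count was also 0 with both tools.

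**Figure D2:**
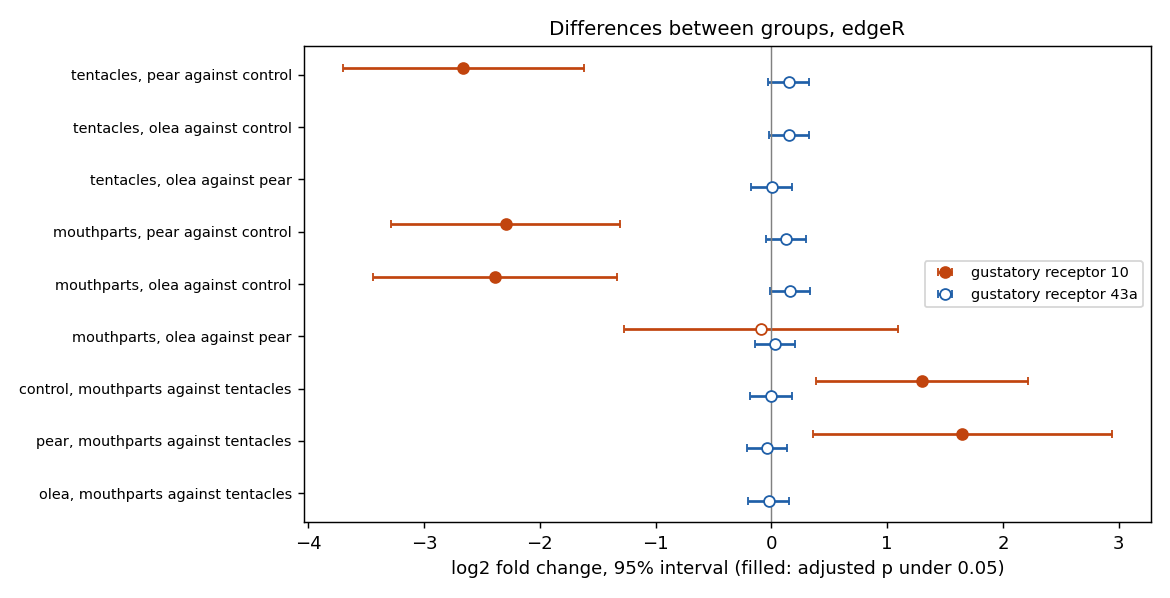
Log2 fold changes of Gr10 and Gr43a with 95% intervals from edgeR for the comparisons of pollen groups and of tissues. Filled points passed at adjusted p under 0.05, and comparisons of Gr10 with the tentacles olea group, which held 0 counts, have no point. Gr10 differences between pollen and control lie between -2.66 and -2.30, and all Gr43a differences lie between -0.04 and 0.16.

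From highest to lowest mean CPM, Gr10 ordered as mouthparts control, tentacles control, mouthparts pear, mouthparts olea, tentacles pear and tentacles olea. Of the neighbours in that order, the tentacles control and mouthparts pear libraries overlapped, and so did the mouthparts pear and olea libraries. Libraries of the mouthparts and tentacles controls did not overlap, nor did those of the mouthparts olea and tentacles pear groups. The tentacles pear and olea groups, at 11 and 0 counts, were not called apart (edgeR, adjusted p = 0.084, unadjusted p = 0.0030). For Gr43a the order of the means, from tentacles olea (40.4 CPM) to mouthparts control (36.0 CPM), put the 4 pollen groups above both controls, and each neighbour overlapped the next. The order depends on the scaling, as in FPKM the tentacles controls (12.7) lay above the mouthparts pear (11.8) and olea (11.3) groups.

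Per kilobase of transcript, Gr43a was above Gr10 in every group. Mean FPKM of Gr43a was 12.7 in the tentacles controls against 0.601 for Gr10, a ratio of 21.2. The ratio was 169 in the tentacles with pear, where Gr10 was at 0.0827 FPKM. In the mouthparts it was 8.43 in the controls, where Gr10 reached its highest mean of 1.17 FPKM, 45.7 with pear and 52.7 with olea. Gr10 is listed at 0 in the tentacles with olea. By FPKM, Gr43a ranked between 5319 and 6390 among the 13790 to 14834 genes detected in a library.

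Within the gustatory receptor family Gr43a carried the largest share. Of the summed FPKM of the 21 entries it made up 36.4 ± 1.7% in the tentacles controls, 36.2 ± 3.3% with pear and 38.1 ± 3.2% with olea (SD, n = 3 each). In the mouthparts it made up 48.2 ± 3.7%, 44.9 ± 1.4% and 51.6 ± 3.5%. The summed family level was 35.1, 38.6 and 36.6 FPKM in the tentacles and 20.5, 26.1 and 21.8 FPKM in the mouthparts. These sums carry no TMM scaling. In log2(FPKM + 1) the median gene, mouthparts minus tentacles, was at -0.30 (control), -0.18 (pear) and -0.27 (olea). Entries with few counts also enter the sums, such as GB50309 with 2.72 FPKM from 51 counts in the tentacles controls. Gr10 made up 5.61 ± 1.93% of the family in the mouthparts controls and 1.74 ± 0.56% in the tentacles controls. With pollen its share was 0.977% and 0.978% in the mouthparts, and 0.216% and 0 in the tentacles.

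The 21 entries stood for 11 RefSeq genes, and 13 entries shared a hit with another, so some are fragments or close relatives whose reads may be split. A low-count filter left 12 of them in the tentacles, 9 in the mouthparts and 13 in the fit of both tissues, and 2 had no count in any library. In the tentacles with pear pollen 1 of 12 was higher and 2, Gr10 among them, were lower, where 14.9% of all genes were higher and 14.6% lower. With olea pollen Gr10 was the single member of 12 that passed, where 14.4% of all genes were higher and 13.5% lower. In the mouthparts Gr10 was the single member of 9 that passed with pear, where 16.5% of all genes were higher and 17.3% lower. It was also the single member that passed with olea, where 12.0% were higher and 14.8% lower. Olea against pear in the tentacles gave 0 calls among 12 members by edgeR and by DESeq2 and 2 lower at an unadjusted p under 0.05 with each tool, where 1.91% of all genes were higher and 0.695% lower. The family's median log2 difference was -0.15 and -0.09 in the tentacles and 0.28 and -0.24 in the mouthparts, beside -0.01, 0.00, 0.01 and -0.01 for all genes tested.

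Besides Gr43a, 6 members were at or above 1 CPM, and 3 of them were called in a pollen comparison. The 32a-like receptor GB53327, of a group that in Drosophila detects bitter compounds and pheromones, was higher with pear in the tentacles by 0.57 ± 0.18 in log2 (edgeR, adjusted p = 0.036), from 2.14 to 3.20 CPM. GB53864, an uncharacterised 7tm chemosensory receptor, was lower there by -0.67 ± 0.23 (adjusted p = 0.047), from 1.71 to 1.07 CPM, and its pear effect differed between tissues by 1.04 ± 0.32 (adjusted p = 0.038). GB53864 was the single member of 13 called in the pear interaction, where 5.46% of all genes were higher and 7.31% lower, and Gr10 was the single member called in the olea interaction, where 4.93% were higher and 10.5% lower. Olea against pear in the mouthparts gave 2 lower members of 9, where 14.9% of all genes were higher and 15.9% lower. They were the sugar receptor GB44499 (64f) at -0.97 ± 0.22 (adjusted p = 0.0055), from 2.55 to 1.29 CPM, and GB53864 at -0.64 ± 0.21 (adjusted p = 0.037). DESeq2 called 0 members lower with pear in the tentacles, with 2 lower at an unadjusted p under 0.05 and no adjusted p for 2 members, Gr10 among them. It called 1 lower in the mouthparts comparison of olea with pear.

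Between tissues 7 of the 13 tested members went the other way from Gr10 in control bees. There 3 members were higher in the mouthparts, 7 were lower and 3 did not pass, where 34.4% of all genes were higher and 36.0% lower. The higher members were Gr10, GB53327 at 1.37 ± 0.22 and the uncharacterised GB51914 at 1.02 ± 0.27. The sugar receptors of the 64f type were lower, GB41360 by -1.14 ± 0.15 and GB44499 by -1.32 ± 0.19, and the uncharacterised GB53326 by -2.11 ± 0.23 (edgeR, all past the threshold). GB51456 showed -3.41 ± 0.94 from only 2 counts in the mouthparts controls. With pear 4 members were higher and 6 lower, where 33.2% and 35.3% of all genes were. With olea 3 were higher and 5 lower, where 35.3% and 40.3% of all genes were. The median over the family was -1.14, -0.61 and -0.46, beside -0.02, -0.03 and -0.08 for all genes.

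**Figure D3:**
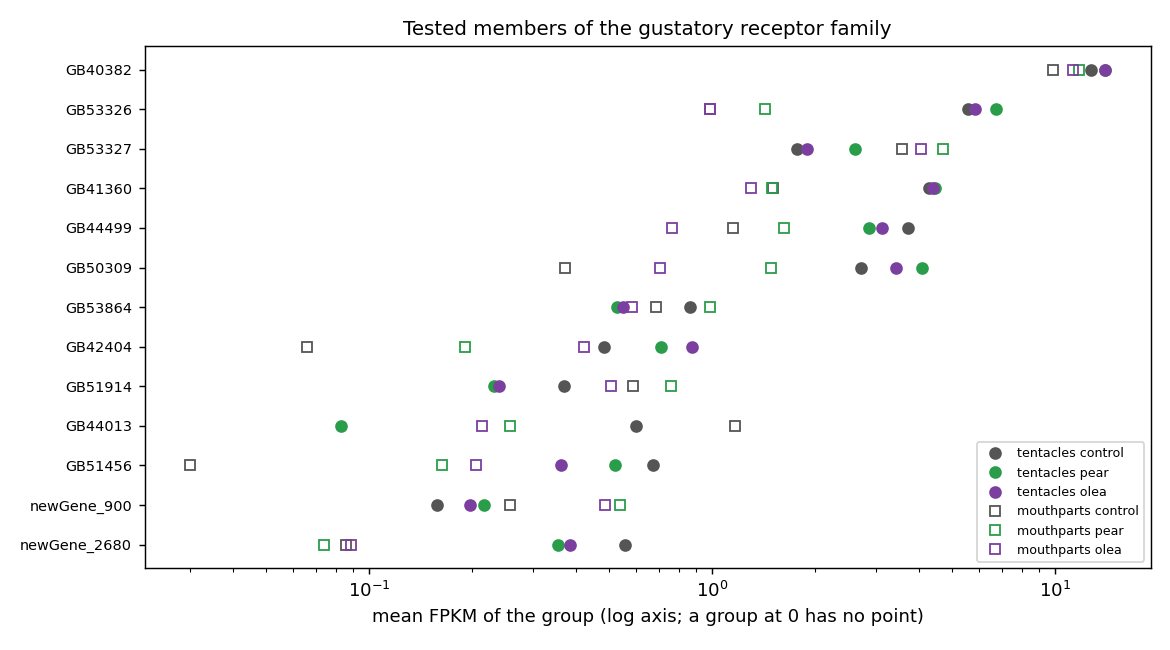
Mean FPKM (log axis) of the 13 gustatory receptor entries tested in the fit of both tissues, in each of the 6 groups (3 libraries each). Filled circles are tentacles and open squares mouthparts. GB40382 (Gr43a) is highest, at 9.85 to 13.97 FPKM in the 6 groups, and GB44013 (Gr10) is highest in the mouthparts controls and has no point for the tentacles olea group, which is at 0.

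Markers of the hypopharyngeal gland moved with the same groups as Gr10. The list held 40 genes of the royal jelly protein domain family, glucose oxidase, alpha-glucosidases and alpha-amylase. It also takes in yellow-type genes and enzymes made in other tissues. Its share of all counts was 2.18 to 3.23% in the tentacles controls, 0.200 to 0.203% with pear and 0.207 to 0.210% with olea. In the mouthparts it was 9.10 to 9.75% in the controls, 1.04 to 1.28% with pear and 1.44 to 1.91% with olea. In each group 2 or 3 of the 40 genes had no count.

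Against control, 23 of 33 tested markers were lower and 3 higher in the tentacles with either pollen, where 14.6% (pear) and 13.5% (olea) of all genes were lower. In the mouthparts 24 of 36 were lower and 2 higher with either pollen, where 17.3% and 14.8% of all genes were lower. In the controls 28 of 36 were higher in the mouthparts than in the tentacles and 5 lower, where 34.4% and 36.0% of all genes were. Muscle markers were lower with pear in the tentacles, at 0.562 to 0.579% of counts against 0.817 to 0.889% in the controls, with 23 of 35 lower and 1 higher, and with olea they took 0.789 to 0.796%, with 10 lower and 3 higher. In the mouthparts 5 of 36 muscle markers were lower and 6 (pear) or 5 (olea) higher. Of all genes there, 16.5% were higher with pear and 12.0% with olea. Single markers of other lists were also lower in the mouthparts pollen groups, though those lists went both ways. Of 21 tested sensilla markers 7 were lower and 8 higher with pear, and 8 lower and 4 higher with olea. The 6 fat body markers were of transferrin and apolipophorin type, with no vitellogenin or hexamerin. Of these 3 were lower and 1 higher with pear, and 1 was lower and 1 higher with olea. The odorant binding protein GB55593 was at 157 to 216 CPM in the mouthparts controls, 17.9 to 22.4 CPM with pear and 10.7 to 30.9 CPM with olea, and the fat body marker apolipophorin-III (GB55452) was at 1143 to 1272, 197 to 261 and 605 to 662 CPM. The part of gland, muscle or other tissue in the Gr10 differences was not tested.

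The most abundant marker and the gland's glucose oxidase show the span. GB55205, which the table names yellow-f and which carries the major royal jelly protein domain, was at 7461, 13179 and 10035 CPM in the tentacles controls and at 0.911 to 1.47 CPM with pear. With olea it was at 0.930 to 1.503 CPM. In the mouthparts it was at 47566 to 51639 CPM in the controls, 2.89 to 5.88 CPM with pear and 908, 200 and 265 CPM with olea. Glucose oxidase (GB44549), an enzyme of the gland's secretion, was at 4080 to 4894 CPM in the mouthparts controls, 8.03 to 8.97 CPM with pear and 777 to 1116 CPM with olea.

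Between olea and pear in the mouthparts these gland genes differed and Gr10 did not pass. Glucose oxidase was higher with olea by 6.75 ± 0.16 in log2 (edgeR, adjusted p = 1.9e-09) and GB55205 by 6.73 ± 0.78 (adjusted p = 0.0013), while the Gr10 difference was -0.09 ± 0.54. The mouthparts olea library with the most GB55205, at 908 CPM, held 0.246 CPM of Gr10. The mouthparts olea library with the most Gr10, at 0.551 CPM, held 265 CPM of GB55205. These Gr10 levels rest on 6 and 13 counts, and their Poisson intervals overlap (0.0903 to 0.535 and 0.293 to 0.943 CPM). The counts therefore do not settle which of these libraries held more Gr10. Whether Gr10 followed GB55205 among the mouthparts olea libraries was not tested. Over the list 14 markers were higher and 3 lower with olea, where 14.9% and 15.9% of all genes were. The remaining share of the list in the mouthparts was mostly GB45951 (yellow-f2-like), at 7751 CPM in the controls, 9979 CPM with pear and 10970 CPM with olea. It was higher than control by 0.37 ± 0.09 in log2 with pear (edgeR, adjusted p = 0.0069) and by 0.52 ± 0.09 with olea (adjusted p = 0.0013).

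**Figure D4:**
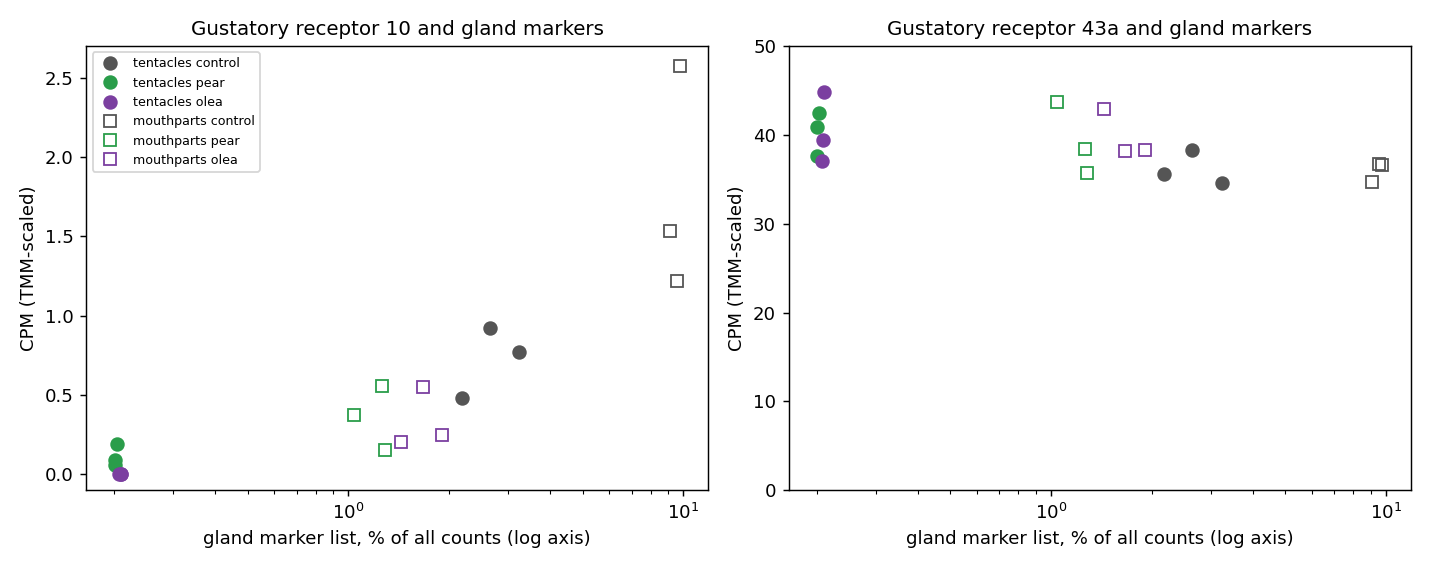
Gr10 (left) and Gr43a (right) in TMM-scaled CPM against the share of all counts (%, log axis) taken by the 40 genes of the hypopharyngeal gland list, per library. The Gr10 level is highest in the mouthparts controls, where the list takes 9.10 to 9.75%, and lowest in the tentacles pollen groups, where it takes 0.200 to 0.210%. Gr43a stays between 34.5 and 44.9 CPM over the same span.

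The genes most like each receptor were found by the Pearson correlation of log2 CPM (prior count of 2) over the 18 libraries, among genes of at least 1 CPM. The libraries share their groups and tissues, so these values are a description. For Gr10 they were GB46521, a CRAL/TRIO domain gene (r = 0.935), calcyclin-binding protein GB51884 (0.927), mannose-1-phosphate guanyltransferase beta GB45261 (0.918), fructose-bisphosphate aldolase GB40734 (0.916) and the histone chaperone asf1 GB46437 (0.911). The median over 11272 genes was 0.021 and the 99th percentile 0.827. The aldolase, an enzyme of glycolysis, had group means of 16.0, 5.29 and 3.94 CPM in the tentacles (control, pear, olea) and 31.3, 7.88 and 14.9 CPM in the mouthparts. Calcyclin-binding protein had 96.4, 58.1 and 53.8 CPM in the tentacles and 117, 67.6 and 76.3 CPM in the mouthparts. Both were highest in the mouthparts controls, as Gr10 was, which follows in part from their choice by correlation.

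For Gr43a the likeness was weaker. The 5 genes were glycogen synthase kinase-3 beta GB53393 (r = 0.787), the RNA polymerase-associated protein CTR9 GB55652 (0.777), GB47049, which has no name in the table (0.766), nuclear receptor coactivator 6 GB46570 (0.749) and RB1-inducible coiled-coil protein 1 GB45142 (0.740). The 99th percentile was 0.592. The kinase was at 5.35, 7.17 and 7.30 CPM in the tentacles and at 5.03, 6.996 and 6.60 CPM in the mouthparts, lower in both control groups and with little difference between tissues. RB1-inducible coiled-coil protein 1, known from autophagy, was at 165, 204 and 221 CPM in the tentacles and at 150, 202 and 192 CPM in the mouthparts.

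The nearest table genes on either side of Gr10 in the reference annotation were GB44012 (ARV1) and GB44207 (a kinase of the ERK7 type). Group means of GB44012 were 9.37 to 13.5 CPM. GB44207 was at 190 to 205 CPM in the tentacles and 3.60 to 6.93 CPM in the mouthparts, opposite in tissue to Gr10. Gr43a overlaps GB40515 (myotubularin-related protein 4, a lipid phosphatase) in that annotation. The strand setting of the counting is not stated, so reads of the overlap cannot be told apart. GB40515 was at 123, 136 and 131 CPM in the tentacles and 153, 161 and 167 CPM in the mouthparts. It was higher in the mouthparts, by 0.32 ± 0.07 in log2 in control bees (edgeR, adjusted p = 0.00024). On the other side, GB40516 was at 8.88 to 10.9 CPM.

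The authors' deposited table gives Gr10 a result in 2 of its 8 comparisons. In the mouthparts its log2 fold change in the authors' deposited table is -2.31 for pear (p = 1.44e-08, edgeR) and -2.38 for olea (p = 1.27e-08, edgeR), and it gives none for the tentacles. Gr43a has a value in all 8 comparisons of the authors' deposited table, from -0.05 to 0.16 in log2, and the smallest edgeR p there is 0.0893.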

How the data were processed

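For each of 18 libraries the authors deposited raw gene counts, from reads mapped with HISAT2 per the submitters' processing notes. Not given in the sources used here are the HISAT2 version, genome build, annotation, counting program and strand setting. Also deposited were FPKM values for each library and, for 8 comparisons, the p-value and log2 fold change of the authors' edgeR tests. RNA was extracted with a Qiagen kit and libraries were made with a SMARTER kit, per the labels' protocols. The table of 17545 genes had 70 lines broken by length, which were rejoined.

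Counts were tested with edgeR 4.0.16 in R 4.3.3 (TMM, filterByExpr by group, robust quasi-likelihood F test). Pollen comparisons were fitted on the 9 libraries of their tissue, and tissue comparisons and interactions on all 18. Genes passed at adjusted p under 0.05 (Benjamini-Hochberg over all genes tested). Standard errors come from the F statistic. A group at 0 was set at a floor of 3 counts. Intervals of log2 fold changes and percent differences come from these errors and include the spread between libraries, whereas Poisson intervals and floors of single levels cover counting error only. The fits were tested on simulated data.

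Named genes were the receptors, family members of at least 1 CPM or among the 3 most changed called members of a comparison, the 5 most correlated genes of each receptor, abundant markers and neighbours. Glucose oxidase was named after its values were seen. The receptors and the lists were chosen with earlier results of these data known. Names come from the table's annotation (KEGG hits with e-value up to 1e-10) and from RefSeq (Amel_HAv3.1), which was used for names and neighbours only. Alternatives were DESeq2 1.42.0, RLE factors, library totals alone, no filter, limma 3.58.1 on log2(FPKM + 1), a replicate block, other sets of libraries and each library left out. Sequences were not analysed here.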

Additional observations from a re-analysis of the deposited data

Results flagged for a closer look

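The olea pollen effect on Gr10 differed between the tissues by the test of the interaction. The fitted difference, mouthparts minus tentacles, was 5.12 ± 1.43 in log2 (edgeR, adjusted p = 0.023, n = 3 libraries per group). The sign says that the fold was larger in the tentacles, where counts went from 88 in the controls to 0 with olea, than in the mouthparts, where they went from 132 to 24. As a group at 0 enters it, the fitted size depends on the prior count and is no bound. By mean CPM, the tentacles control was 22.6-fold the level that 0 counts allow in the olea group. The mouthparts control was 5.31-fold the olea mean. Both folds leave out the error of the means. The gland genes GB55205 and glucose oxidase (GB44549) had interactions of the same sign, at 6.19 ± 0.79 and 7.55 ± 0.49 (edgeR, adjusted p = 0.00026 and 7.6e-07), and their part in the Gr10 result was not tested. On log2(FPKM + 1) with limma the difference was -0.15 (adjusted p = 0.63). The call was also lost when any tentacles olea library or the third mouthparts olea library was left out.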

How the results depend on the processing

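Of the 22 differences of Gr10 and Gr43a, 12 kept their call, or their lack of one, in every alternative that gave a value. Some of those without a call changed sign, such as Gr10 for olea against pear in the mouthparts (-0.64 to 0.38). RLE factors, no filter and the replicate block changed 0 of 22, and DESeq2 0 of the 20 it gave an adjusted p. It gave none for Gr10 in the tentacles for pear against control (-2.70) and olea against pear (-4.25). With library totals alone, Gr43a passed in the mouthparts at 0.26 with pear and 0.22 with olea, and between tissues at -0.38 (control), -0.24 (pear) and -0.30 (olea), and Gr10 between tissues of the controls no longer passed, at 0.93. On log2(FPKM + 1), where Gr10 lies near the pseudocount, Gr43a passed at 0.23 for pear in the mouthparts and at -0.34, -0.23 and -0.29 between tissues. Gr10 between tissues did not pass with pear (0.21) or olea (0.27), and its olea interaction reversed to -0.15 (adjusted p = 0.63). Without replicate 2 of all 3 mouthparts groups Gr10 did not pass for olea in the mouthparts (-1.76) or between tissues of the controls (0.94). Leaving out single libraries, Gr10 ranged from 0.94 to 1.51 between tissues of the controls, from 1.22 to 2.21 with pear and from 4.59 to 5.51 for the olea interaction. It kept its call for pear and olea against control in both tissues, at -3.23 to -2.36 with pear in the tentacles, -2.76 to -1.93 with pear in the mouthparts and -2.93 to -2.01 with olea in the mouthparts. Fits of only the 6 libraries compared left Gr10 under the filter for olea against pear in the tentacles and between tissues with pear and with olea. Reading the YH libraries as pear gave Gr10 -2.33 (adjusted p = 0.0037) and Gr43a 0.14 (adjusted p = 0.22) against the mouthparts controls. Of the family counts, DESeq2 gave 0 members lower with pear in the tentacles (2 at an unadjusted p under 0.05) and 1 lower for olea against pear in the mouthparts, and library totals gave 1 higher with pear, 1 higher with olea in the mouthparts and 2 higher in the pear interaction. Same-numbered libraries correlated at -0.11 to 0.09 within tissues and -0.16 to 0.20 between them. Such values show no clear pairing by number and cannot exclude that same-numbered libraries share bees. With the replicate block Gr10 changed by -2.68 with pear in the tentacles and -2.36 in the mouthparts. The causes of these changes were not tested. Depth limits what can be said of Gr10, with 0 to 64 counts per library.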
